A study of Mus musculus with 8 samples.

Results

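Alkal2 is a small secreted protein that activates the receptor tyrosine kinases ALK and LTK, and its gene is listed under the older symbol Fam150b in these data. The 4 genes followed were Fam150b, Fam150a (the older symbol of Alkal1, the other known ligand), Alk and Ltk, picked by symbol from the 22609 genes counted. Acp1, which encodes a low molecular weight protein tyrosine phosphatase and ends on the opposite strand inside the last exon of Fam150b, was followed as a comparison gene. The genes were picked with the sex difference of Fam150b already known from these libraries, so the sex contrast of the 4 genes is given as values without a test.

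When a ligand binds, ALK and LTK pair up at the cell surface and phosphorylate docking proteins that pass the signal to the RAS-MAPK, PI3K-AKT and JAK-STAT pathways. ALK is best known in the nervous system for its part in the development of peripheral neurons and as an oncogene of neuroblastoma, a tumour of the sympathetic lineage. Sensory neurons of the dorsal root ganglia (DRG) carry touch, pain and position signals from skin and muscle, and growth factor receptors of the same class, such as RET, mark their subtypes.

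The samples were 4 female and 4 male libraries of DRG neurons from naive young adult C57BL/6J mice, with the females taken in the estrous phase. The neurons had been traced by injecting wheat germ agglutinin coupled to Alexa Fluor 488 (WGA-488) into hindpaw skin and thigh muscle, and labelled cells of the lumbar ganglia were sorted by flow cytometry, so that skin and muscle neurons are mixed in every library. All mice were untreated apart from the tracer, both sexes received it, and each library held lumbar ganglia of both sides, as many as a single mouse has at those levels. The study's results count 4 samples of each sex, while the labels name no animal.

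Each library held 4800071 to 7329597 reads assigned to genes. At that depth a count of 0 allows a level of up to 0.409 to 0.625 CPM (counts scaled to 1000000 gene reads) in a library, taking 3 reads as the limit. The libraries carried no molecular identifiers, so these limits and all intervals cover counting error only. Neuronal markers were high in every library, with a summed level of 14004 to 19313 CPM over 9 pan-neuronal genes in females and 15080 to 15579 CPM in males. Markers of satellite glia and Schwann cells were high too, with a summed level over 10 genes of 11453 to 14798 CPM in females and 5359 to 11058 CPM in males, so the sorted fraction was not free of glial RNA. Most of this sum was Apoe, with a mean of 8940 of 12341 CPM in females and 5818 of 8719 CPM in males. Female replicate 4 stood apart from the other females: the chi-square of its counts per degree of freedom was 32.3 to 48.0 against them, and at most 12.8 for any other pair of the same sex.

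On the mouse mm9 build, Fam150b (ENSMUSG00000054204.6) lies on the plus strand at chr12:31569187-31578719, with 5 exons of 1509 bases in all, 453 of them coding. The 250 bases before its annotated start, chr12:31568937-31569186 on the plus strand, are printed because the sex difference turned on this gene. Capitals mark the matches to TGACG, the core of the cAMP response element.
Fam150b upstream region: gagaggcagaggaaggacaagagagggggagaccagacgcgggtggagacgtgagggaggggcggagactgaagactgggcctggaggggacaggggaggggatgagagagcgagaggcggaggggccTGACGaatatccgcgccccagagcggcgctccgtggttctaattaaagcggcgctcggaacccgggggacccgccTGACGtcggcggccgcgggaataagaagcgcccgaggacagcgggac
The region held 25 CpG dinucleotides, against a median of 6 in 32851 RefSeq promoter windows (GRCm38.p6) of the same length, and 89.3% of those windows held fewer. Its GC content was 68.0% against a median of 52.4%. The letters TGACG occurred 2 times, 122 and 47 bases before the start, and at least 1 match on either strand was present in 17.8% of the RefSeq windows. Searched on both strands, the estrogen response element core GGTCA, the androgen response element core AGAACA and the TATA box TATAAA had 0 matches in this window, and 35.2%, 16.1% and 12.4% of all windows held them. None of the motifs overlapped another here, and a match or its absence is a description of the letters, not of binding.

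Fam150b was the one gene of the 4 with a high level in these neurons, and every male library lay above every female library. The female libraries, replicates 1 to 4, gave 34.4, 27.2, 39.8 and 43.3 CPM from 250, 157, 191 and 257 reads. The male libraries gave 113, 85.3, 77.6 and 92.3 CPM from 827, 574, 470 and 624 reads. The lowest male library exceeded the highest female library by 34.3 CPM, so the sexes did not overlap. The mean was 36.2 ± 6.99 CPM in females and 92.0 ± 15.1 CPM in males (SD, n = 4 each), a difference of 55.8 CPM and a 2.54-fold higher mean in males. Fitted with edgeR over all genes, the log2 ratio of females to males was -1.37 with a standard error of 0.17, and it was -1.46 without female replicate 4. Of the 12518 genes that passed the filter on low counts, 13 had a more negative ratio than Fam150b.

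**Figure D1:**
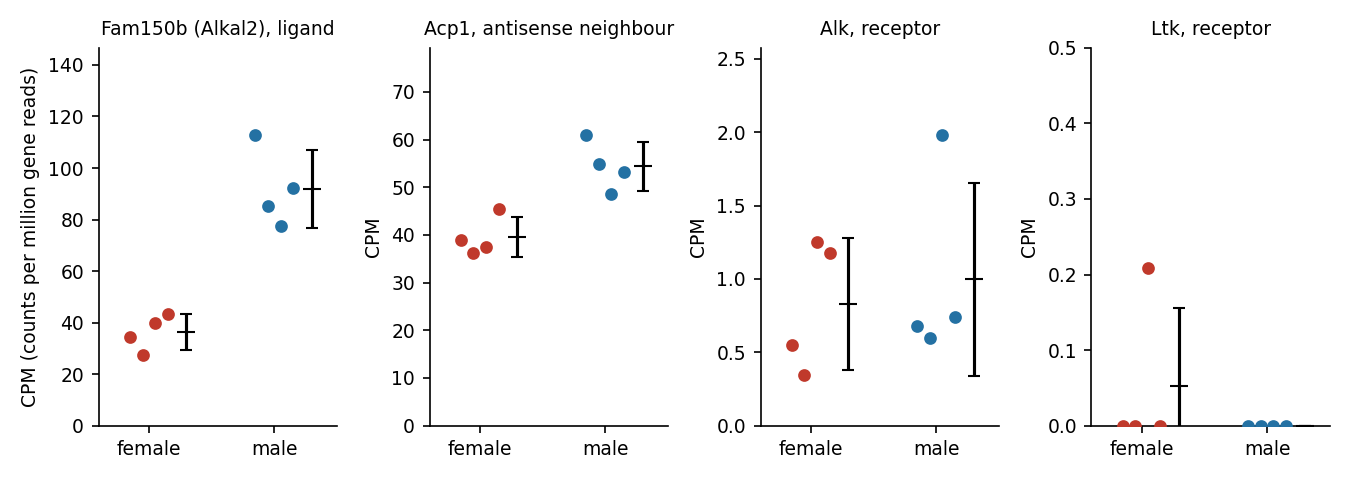
CPM (y axis, from 0, one scale per panel) of Fam150b, Acp1, Alk and Ltk in the 4 female and 4 male libraries, with points for libraries and bars for the mean and SD of each sex. The male Fam150b points, 77.6 to 113 CPM, all sit above the female points, 27.2 to 43.3 CPM, while the Alk points of the sexes overlap.

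Among the 4 genes, 1 passed the filter and 1 did not overlap between the sexes, which is the gene the choice rested on; across all genes tested, 2.52% were higher in males with no overlap. The spread of Fam150b within a sex was moderate, with a coefficient of variation of 19.3% in females and 16.4% in males. In sorted pools such as these, fewer cells that express a gene and less RNA of it per cell cannot be told apart.

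Alk, the receptor best known for binding Alkal2, was at the edge of detection in both sexes. Alk (ENSMUSG00000055471.6) lies on the minus strand at chr17:72218782-72953049, and its model has 29 exons with 4866 bases, 4863 of them coding, so it holds no untranslated region. The female libraries had 4, 2, 6 and 7 Alk reads, or 0.550, 0.347, 1.25 and 1.18 CPM. The male libraries had 5, 4, 12 and 5 reads, or 0.682, 0.594, 1.98 and 0.740 CPM. The sexes overlapped, and male replicate 3 was the highest of all. The means were 0.832 ± 0.451 CPM in females and 0.999 ± 0.657 CPM in males (SD, n = 4 each). Summed over libraries, 19 female and 26 male reads gave a male-to-female ratio of 1.21. Its 95% counting interval was 0.644 to 2.31, which leaves out the spread between libraries. Without male replicate 3, which held 12 of the 26 male reads, the log2 ratio of mean CPM, females to males, turned from -0.27 to 0.31. On so few reads no sex difference of Alk could be told. The interval covers ratios up to 2.31 and does not show that the sexes were alike.

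Ltk, the second receptor, and Fam150a, the second ligand, were at or under the limit of detection. Ltk (ENSMUSG00000027297.7) lies on the minus strand at chr2:119577056-119586167, has 16 exons with 3594 bases, and had 1 read in all 8 libraries together, in female replicate 3. Fam150a (ENSMUSG00000087247.1) lies on the plus strand at chr1:6349537-6384812 and had 0 reads in all 8 libraries, which allows a level of up to 0.0592 CPM over the summed libraries. The annotation used here lists Fam150a as a long noncoding RNA of 733 bases. No fold between the sexes can be given for either gene.

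To compare levels between genes, CPM were divided by exon length, giving CPM per kilobase of exon. On this scale the mean over the 8 libraries was 42.5 for Fam150b, 0.188 for Alk and 0.00725 for Ltk, and 14.6 for Acp1. Fam150b was above 92.5% of the 21430 genes with an exon length, Acp1 above 81.7%, Alk above 36.8% and Ltk above 23.3%. The order Fam150b, Acp1, Alk, Ltk was the same in sum and in each library. The ratios between genes are given as a description with no test, because Fam150b was chosen on its values in these libraries. Fam150b exceeded Alk in 8 of 8 libraries, by a mean log2 ratio of 7.70 ± 0.917 (SD, n = 8), or 207-fold, which was 140-fold in females and 307-fold in males. Fam150b exceeded Acp1 in 8 of 8 libraries, 2.63-fold over all, 1.93-fold in females and 3.58-fold in males. With the same reads divided by only the exon bases that no other gene shares, Fam150b exceeded Alk 319-fold and Acp1 3.38-fold. The reads were not restricted to those bases, so these values hold only if no read from shared bases was counted. Alk had more reads than Ltk in every library, but Ltk was at 0 in 7 of them, and the ratio of their summed reads per kilobase was 33.2 with a 95% counting interval of 5.67 to 1342.

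**Figure D2:**
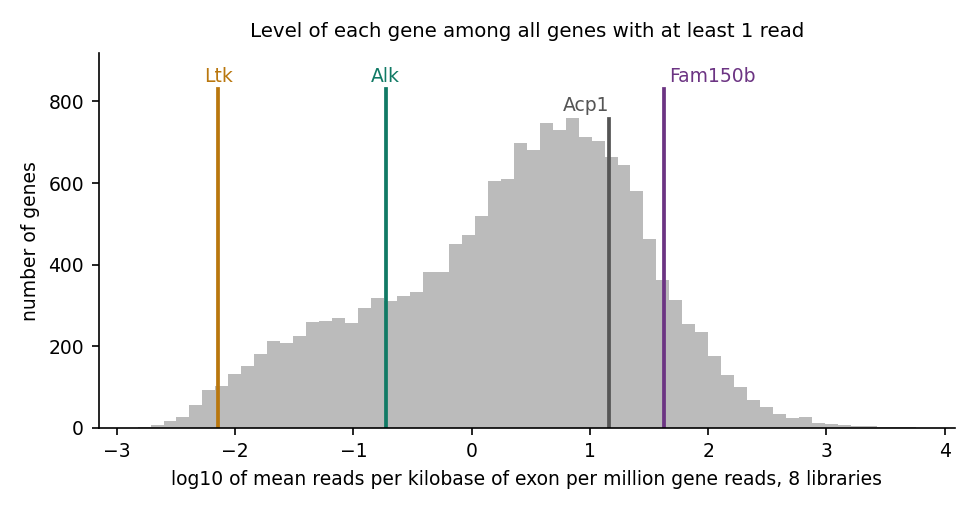
Number of genes (y axis) by log10 of mean CPM per kilobase of exon (x axis), for genes with at least 1 read, with vertical lines at the followed genes. Fam150b, at 42.5, lies in the upper tail and Alk and Ltk, at 0.188 and 0.00725, in the lower tail; Fam150a had no read and is not drawn.

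Ligand and receptor levels were thus far apart within the same sorted fraction. In female libraries Fam150b ranged from 18.1 to 28.7 on this per-length scale and Alk from 0.0713 to 0.257. In male libraries the ranges were 51.4 to 74.8 for Fam150b and 0.122 to 0.407 for Alk. Even the lowest Fam150b library was far above the highest Alk library.

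Acp1 (ENSMUSG00000044573.8) lies on the minus strand at chr12:31578191-31596477, and its 3' end overlaps that of Fam150b. The genes share 529 exon bases, chr12:31578191-31578719, which are 35.1% of the exon bases of Fam150b and 16.4% of those of Acp1 and hold 0 coding bases of Fam150b. SMART-seq2 libraries do not mark strand, so a read from the shared stretch cannot be assigned to either gene by its direction, and how the counting treated such reads is not given in the sources used here. Reads that the counting set aside as ambiguous between genes were 0.145% to 0.169% of uniquely aligned reads in every library.

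**Figure D3:**
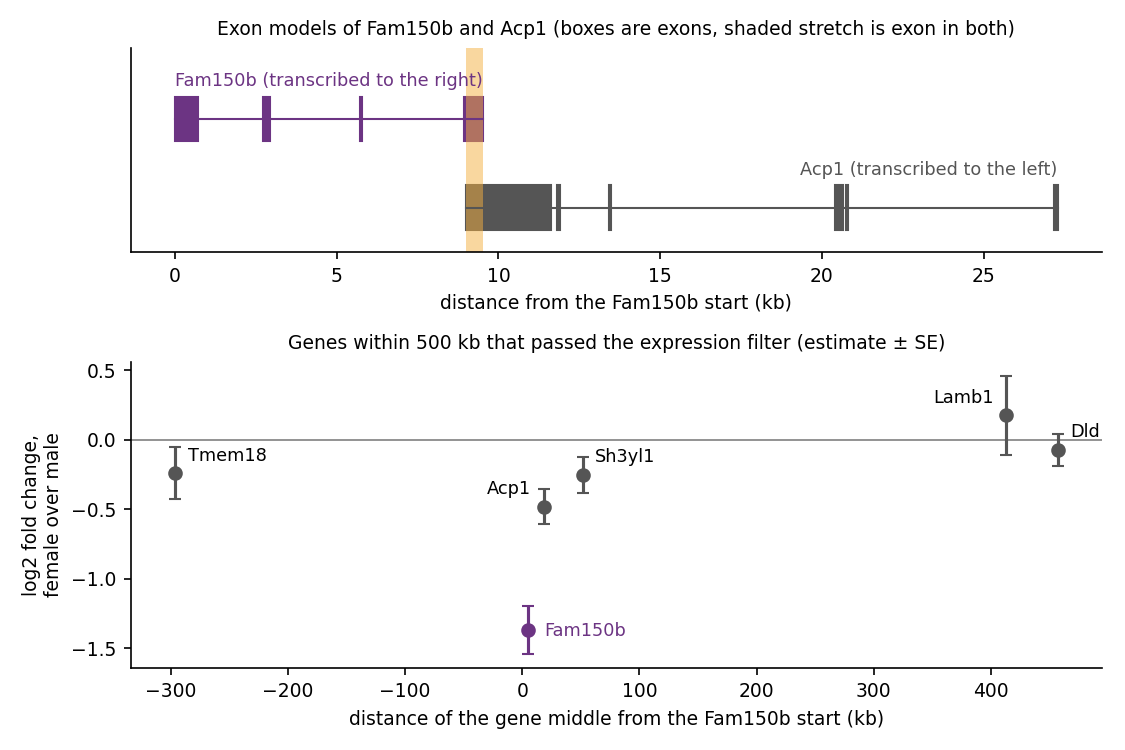
Upper panel, exons of Fam150b (plus strand) and Acp1 (minus strand) by distance from the Fam150b start in kilobases, with the 529 shared bases shaded; lower panel, log2 ratio of females to males ± SE of tested genes within 500 kb. Fam150b, at -1.37, lies below its 5 neighbours, which range from -0.48 to 0.18.

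Acp1 also had a lower mean in females, by a smaller ratio than Fam150b. Because reads from the shared exon bases may lie in either count, Acp1 may not be an independent comparison. How far its values and its test carry reads of Fam150b was not tested. The female libraries gave 39.0, 36.3, 37.5 and 45.5 CPM and the male libraries 61.0, 55.0, 48.5 and 53.2 CPM. The sexes did not overlap, with a gap of 3.06 CPM between the lowest male and the highest female library. The means were 39.6 ± 4.10 and 54.4 ± 5.14 CPM (SD, n = 4 each), 1.38-fold higher in males. In edgeR's quasi-likelihood test the log2 ratio of females to males was -0.48 with a standard error of 0.13, an unadjusted p of 0.00297 and a Benjamini-Hochberg adjusted p of 0.519, so Acp1 did not pass the adjusted threshold. In DESeq2 its adjusted p was 0.120. Of all genes tested, 7.11% had an unadjusted p under 0.05 in edgeR and 0.0879% an adjusted one, which includes sex-linked genes.

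The ratio of Fam150b to Acp1 reads is given as a description, since it carries the difference of Fam150b that the choice of genes rested on. It also depends on how reads from the shared exon bases were counted, which is not known. In females the ratio was 0.880, 0.751, 1.06 and 0.952, a mean of 0.911 ± 0.130 (SD, n = 4). In males it was 1.85, 1.55, 1.60 and 1.73, a mean of 1.68 ± 0.135 (SD, n = 4). The highest female ratio was below the lowest male ratio. The summed level of both genes was 63.5 to 88.8 CPM in females and 126 to 174 CPM in males.

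The other genes around Fam150b did not pass the test. Within 500 kb, 7 genes were measured beside it, 5 passed the filter, and Acp1 was the 1 with an unadjusted p under 0.05 in edgeR, against 7.11% of all genes tested. Sh3yl1, whose start lies next to that of Acp1, had a log2 ratio of females to males of -0.25 ± 0.13 (SE), with means of 27.9 CPM in females and 32.8 CPM in males. Tmem18, a membrane protein gene upstream, had a ratio of -0.24 ± 0.19 (SE). Lamb1, a laminin subunit of basement membranes, had a ratio of 0.18 ± 0.29 (SE), and Dld, a subunit of mitochondrial dehydrogenase complexes, -0.07 ± 0.12 (SE). Fam110c had 1 read in all libraries and Slc26a3 had 0. Without female replicate 4 the count near Fam150b was 2, a fit for which no share over all genes is given.

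Genes that work with or downstream of ALK and genes of related ligands and receptors were followed as 8 lists. Of their 83 genes, grouped as other ligands and partners, related receptor kinases, adaptors, RAS-MAPK, PI3K-AKT-mTOR, JAK-STAT, negative regulators and transcriptional targets, 79 passed the filter. In edgeR, 4 of the 79 had an unadjusted p under 0.05, 1 higher (background 4.44%) and 3 lower in females (background 2.67%), and 0 an adjusted p under 0.05; in DESeq2 and limma-voom 5 and 6 passed unadjusted and 0 adjusted. The median log2 ratio of females to males over the 79 was -0.07, against 0.00 over all genes tested. The share of all genes with an unadjusted p under 0.05 is given for the main edgeR fit alone. The counts of DESeq2, limma-voom and the fits without a library therefore have no background of their own. Both the count and its split by direction depended on single libraries. Without female replicate 1 the count was 7, with 5 higher and 2 lower in females. Without female replicate 2 it was 9, with 0 higher and 9 lower, and without female replicate 4 it was 13, with 7 higher and 6 lower. Without male replicate 1 the count was 1, a gene lower in females, and without male replicate 4 it was 1, a gene higher in females. No direction of the pathway as a whole can be read from these counts.

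The 4 genes are named because they passed the unadjusted threshold, and without male replicate 4 none of the 4 calls was left. Shc1, the adaptor that links phosphorylated receptors to RAS, had a mean of 193 ± 44.1 CPM in females and 261 ± 29.7 CPM in males (SD, n = 4 each), a log2 ratio of -0.45 ± 0.17 (SE) and an edgeR adjusted p of 0.656. Spry2 and Spry4, feedback inhibitors of receptor signalling to MAPK, had ratios of -0.36 ± 0.13 and -0.55 ± 0.22 (SE), with edgeR adjusted p of 0.637 and 0.663. The female and male libraries of Shc1, Spry2 and Spry4 did not overlap, where 2.52% of all genes tested were higher in males with no overlap. Shc1 was 130 to 225 CPM in females and 230 to 298 CPM in males. Spry2 was 33.5 to 42.3 CPM in females and 43.0 to 53.0 CPM in males, and Spry4 19.0 to 44.0 and 47.0 to 51.7 CPM. These genes were picked for a low p, so the lack of overlap is no separate result. Ntrk3, the receptor of neurotrophin-3, was the gene higher in females, by 0.56 ± 0.22 (SE) on the log2 scale with an edgeR adjusted p of 0.660, and its libraries overlapped, at 56.1 to 86.2 CPM in females and 30.2 to 65.1 CPM in males.

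**Figure D4:**
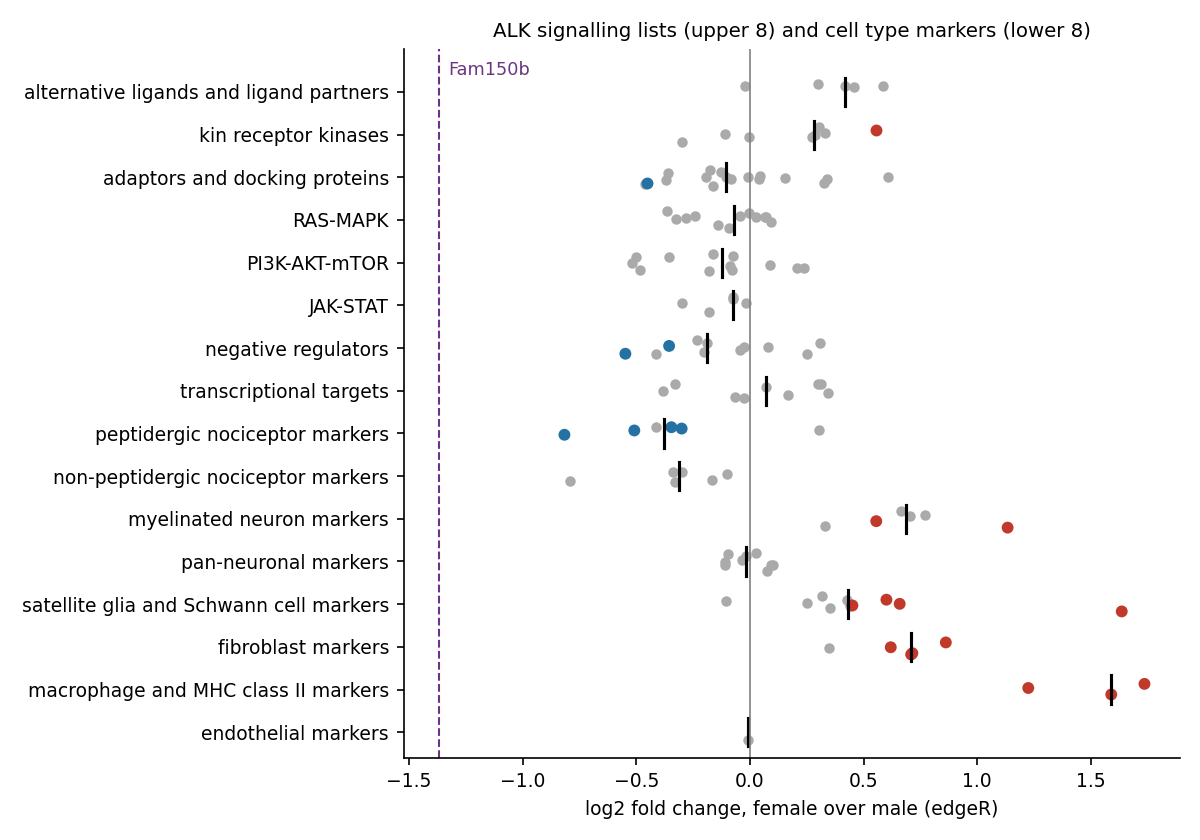
Log2 ratio of females to males of each tested gene (points) of the 8 pathway lists and 8 marker lists, with a black bar at each list's median, red and blue for genes higher and lower in females at an unadjusted p under 0.05, and a dashed line at Fam150b. The pathway genes have a median of -0.07, and no gene drawn reaches the -1.37 of Fam150b.

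Levels along the pathway are given as the mean CPM over 8 libraries, which is not corrected for length. Among receptors related to ALK, Ret, the GDNF family co-receptor, was at 893 CPM and Ntrk2, the BDNF receptor, at 180 CPM. Ros1, the close kin of ALK and LTK, had 0 reads. The heparin-binding growth factor Ptn, once proposed as an ALK ligand, was at 84.9 CPM, its receptor phosphatase Ptprz1 at 79.3 CPM and the heparan sulfate proteoglycan Sdc3 at 162 CPM. Among adaptors Shc1 was highest at 227 CPM, ahead of Crk at 85.1 CPM and Crkl at 66.3 CPM. The levels named here lie above the 0.915 CPM mean of Alk, except that of Ros1.

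Kinases of each branch were present in every library. In the RAS-MAPK group the means were 482 CPM for Mapk3 and 336 CPM for Map2k1. The PI3K regulatory subunits Pik3r1 and Pik3r2 were at 134 and 119 CPM and the catalytic subunit Pik3cd at 94.0 CPM. Stat3 was at 609 CPM, Jak1 at 350 CPM and Stat5b at 37.7 CPM. Among negative regulators Spry2 was at 42.4 CPM and Spry4 at 41.4 CPM. Among transcriptional targets the immediate early genes Fos and Egr1 were at 160.0 and 89.3 CPM, and the ETS factor Etv5 at 132 CPM. None of these other than Shc1, Spry2 and Spry4 had an unadjusted p under 0.05 between the sexes in edgeR.

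Marker genes of several cell types differed with sex beside Fam150b. Of 56 marker genes 46 were tested; 13 were higher and 4 lower in females at an unadjusted p under 0.05 in edgeR, against 4.44% and 2.67% of all genes tested, with 0 at an adjusted one. In DESeq2, where 0.383% of all genes had an adjusted p under 0.05, 4 markers did: Sox10 (adjusted p = 0.00757), Dcn (0.0121), H2-Eb1 (0.0219) and Adcyap1 (0.0335). The count of lower markers was 8 without female replicate 4, 2 without female replicate 3 or male replicate 4 and 1 without male replicate 1. For the fits without a library, no share over all genes is given beside the marker counts. Peptidergic nociceptor markers held the 4 lower ones of 6: Calca, Calcb, Tac1 and Adcyap1, which encode CGRP peptides, substance P and PACAP, had log2 ratios of -0.35, -0.30, -0.51 and -0.82. The peptidergic count was 1 without male replicate 1 and 2 without female replicate 3 or male replicate 4. The summed level of the 6 overlapped, at 4776 to 6211 CPM in females and 5705 to 8161 CPM in males. Non-peptidergic markers had 0 of 6 called, and of the 6 myelinated neuron markers Nefh, a heavy neurofilament, and Ntrk3 were higher in females, by 1.13 and 0.56 on the log2 scale. The myelinated count was 4 without male replicate 2 and 1 without female replicate 2, female replicate 3, male replicate 1 or male replicate 4. Without female replicate 2 the non-peptidergic count was 2, and without female replicate 4 it was 1. Pan-neuronal markers had 0 of 9 called, and 2 without female replicate 4.

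Part of the glial, fibroblast and macrophage markers were higher in females at the unadjusted threshold of edgeR. Of 10 glial genes 4 were called, among them Sox10, Mbp and Apoe. The summed glial level given above, most of it Apoe, did not overlap between the sexes. Pmp22, a myelin gene, went the other way with a log2 ratio of -0.10 and was not called. Of 5 fibroblast genes tested 4 were called, Col1a2, Dcn, Lum and Bgn, and the count was 2 without female replicate 4. Sums over the 7 genes of the list were 98.7 to 149.6 CPM in females and 44.6 to 84.4 CPM in males. Col1a1 and Pdgfra did not pass the filter. Col1a1 had a higher mean in females, at 9.53 against 0.402 CPM, and Pdgfra a lower one, at 1.14 against 2.13 CPM. Of 3 macrophage and MHC class II genes tested, Cd74, H2-Ab1 and H2-Eb1 were all called. Sums over the 7 genes of the list were 14.0 to 34.8 CPM in females and 4.50 to 9.76 CPM in males. Cd74 was 3.44 to 6.67 CPM in females and 0.136 to 2.97 CPM in males, and H2-Ab1 2.47 to 12.9 and 1.23 to 2.66 CPM. Genes this low can pass the filter through the females alone, so this count may be partly set by the filter. H2-Aa, Aif1, Csf1r and Itgam did not pass. The mean of Aif1 was lower in females, at 0.343 against 0.700 CPM, and those of the others were higher. The 1 endothelial gene tested was not called, and the endothelial sums overlapped. The summed levels of these 3 lists were lower in the males, where Fam150b was higher, and their part in its difference was not tested.

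Genes whose profile over the 8 libraries was nearest to that of Fam150b were found by the root mean square difference of log2 CPM, each gene centred on its own mean, among 10640 genes with a mean of at least 5 CPM. The nearest 6 were Serpina3i (0.20), Steap1 (0.20), Bdnf (0.25), Marveld3 (0.34), Adamts8 (0.35) and Arxes2 (0.37), against a median of 0.76 over all genes compared. Bdnf, a neurotrophin made by peptidergic neurons, was at 63.2 to 79.2 CPM in females and 105 to 159 CPM in males. Serpina3i, a serine protease inhibitor gene of a multigene family whose reads may be shared with near copies, was at 6.59 to 9.62 CPM and 16.5 to 28.2 CPM. Acp1 stood at position 29 with a difference of 0.47. Because a sex difference dominates the profile of Fam150b, genes higher in males come first in this order by construction.

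**Figure D5:**
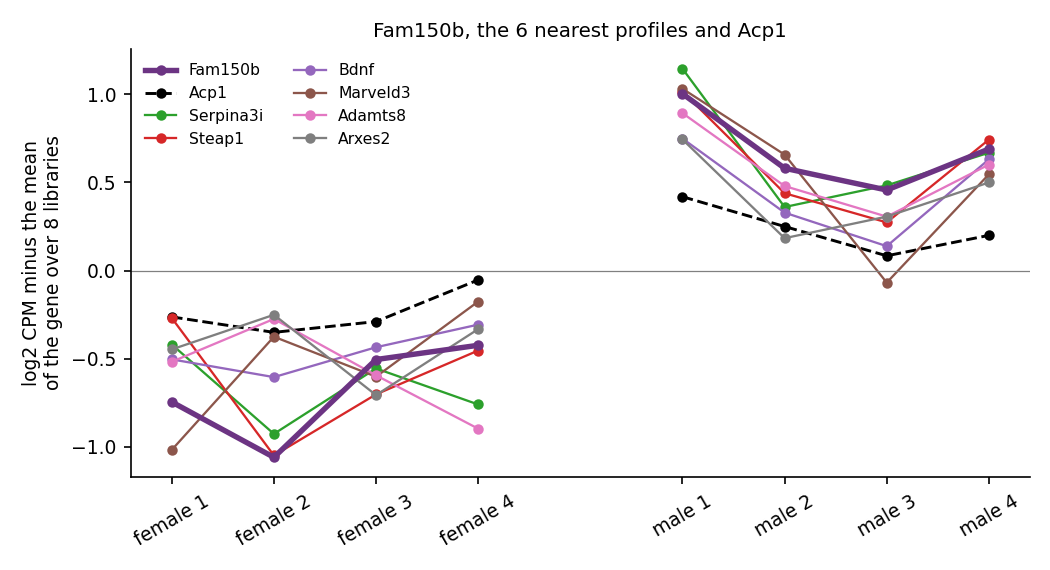
Log2 CPM centred on each gene's mean, in the 4 female and 4 male libraries, for Fam150b, its 6 nearest genes and Acp1. Female points lie below each gene's mean and male points above it, except Marveld3 in male replicate 3 at -0.07, and the lines only join the points of a gene.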

How the data were processed

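RNA of sorted DRG neurons was converted to cDNA with an oligo-dT primer, amplified by PCR (SMART-seq2) and sequenced as single reads. The authors aligned reads with TopHat2 to mm9 and deposited HTSeq counts per gene; versions, annotation release and strand option are not given in the sources used here. Gene reads were 40.5% of uniquely aligned reads, and the 5 summary lines that name no gene (no feature 59.4%) stayed out of totals and tests.

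Sexes were compared on the deposited counts with edgeR 4.0.16 (TMM, filterByExpr, quasi-likelihood test, Benjamini-Hochberg adjustment) on 12518 genes, after the code was tested on simulated data, in R 4.3.3. DESeq2 1.42.0, limma 3.58.1, other scalings and filters, a replicate block and leaving out each library were alternatives. CPM used total gene reads. Exon lengths came from GENCODE M1 on NCBIM37, which matched 21430 of the 22609 genes (94.8%) by symbol; the upstream sequence came from the same genome. Ratios of levels between genes, with 0.5 reads added, were computed in Python 3.11.15 with scipy 1.17.1; their exact sign-flip tests are not reported, since Fam150b was chosen on these values.

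Members and lists were chosen with earlier results of these data known. Named genes were the 4 genes and Acp1, every listed gene with an unadjusted p under 0.05, the 3 most abundant genes of each pathway list, the measured genes within 500 kb, and the 6 nearest profiles; Ros1 and Dus4l were named after their values were seen. Some genes that this rule names are not reported here. Hras was matched through its synonym. No libraries of a sex were duplicates, with a chi-square per degree of freedom of at least 2.90.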

Additional observations from a re-analysis of the deposited data

Results flagged for a closer look

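In groups of 4 libraries, a library was singled out when its gap to the nearest other, divided by the range of the group, passed Dixon's critical value for 4 samples. Of 120 groups checked 14 were singled out, and chance alone singles out about 1 in 20 groups. Alk in male replicate 3 was 1.98 CPM against 0.594 to 0.740 CPM in the other males, on 12 reads. Ltk in female replicate 3 was 0.208 CPM and Fam110c in female replicate 1 was 0.137 CPM, each on 1 read against 0 in the other females.

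Female replicate 4 was singled out most often. There Ret was 401 CPM against 905 to 971 CPM in the other females, Ptprz1 was 46.3 CPM against 101 to 111 CPM, Crkl was 22.9 CPM against 67.0 to 74.0 CPM and Lamb1 was 23.1 CPM against 66.5 to 67.9 CPM. In the same library Apoe was 10873 CPM against 8054 to 8507 CPM, and the summed glial markers were 14798 CPM against 11453 to 11627 CPM.

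Male replicate 1 was singled out for Mbp, at 122 CPM against 173 to 180 CPM, for the summed non-peptidergic markers, at 5209 CPM against 4314 to 4394 CPM, and for the summed macrophage and MHC class II markers, at 4.50 CPM against 9.51 to 9.76 CPM. Fos was 221 CPM in male replicate 2 against 108 to 123 CPM in the other males, and Crk was 82.7 CPM in male replicate 4 against 71.3 to 73.1 CPM.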

How the results depend on the processing

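The log2 ratio of females to males of Fam150b was -1.46 to -1.25 over 15 alternatives, -1.37 with the replicate number as a block. That of Acp1 was -0.55 to -0.41 with adjusted p of 0.120 to 0.972, never past the threshold. The ratio of Alk was -0.27, with a range of -0.53 to 0.31 over 9 alternatives, and it turned positive without male replicate 3, on few reads; of the fitted settings, the one without a filter gave Alk a value. No setting gave Ltk or Fam150a a fold. The pathway count of 4 was 1 to 13 when a library was left out, and 6 with the block. The count of genes near Fam150b was 1 to 2 when a library was left out, and 2 within 1000 kb. The count over all marker genes was 13 to 22. For these other fits no share of all genes with an unadjusted p under 0.05 is given. With a filter at a mean of 5 CPM, 0 macrophage genes were left to test. In females alone the log2 ratio was 7.13 for Fam150b over Alk, 2.44 for Alk over Ltk and -0.95 for Acp1 over Fam150b; in males alone the values were 8.26, 3.25 and -1.84. Leaving out libraries gave 7.52 to 7.86, 2.65 to 3.01 and -1.50 to -1.31. The values for Alk over Ltk are set by the 0.5 reads added to counts of 0 and are no estimate of the ratio. With the same reads divided by unshared exon bases, Fam150b over Alk was 8.32 and Acp1 over Fam150b -1.76. Same-numbered female and male libraries had correlations of their deviations of 0.0939, -0.109, 0.144 and 0.00476. For 2 of the 4 female libraries the male library that correlated best had the same number. These values do not settle whether the numbers pair libraries. Depth limits Alk, Ltk and Fam150a.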

Other observations

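Between 500 and 1000 kb from Fam150b, Dus4l, a tRNA dihydrouridine synthase gene, was higher in females, at 3.72 ± 0.660 CPM against 2.03 ± 0.467 CPM in males (SD, n = 4 each), an unadjusted p of 0.0110 and an edgeR adjusted p of 0.637. It was the 1 gene of that stretch with an unadjusted p under 0.05, and with Acp1 it made 2 of 12 tested genes within 1000 kb, in opposite directions, where 7.11% of all genes tested had such a p.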
